A study of Homo sapiens with 10 samples.

Results

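The 76 genes described here encode mitochondrial ribosomal proteins, measured in protrusions and cell bodies of MDA-MB-231, a human triple-negative breast cancer cell line. They were chosen by name from the 26134 genes of the deposited table: protein-coding genes whose symbol is MRPL or MRPS followed by a number and at most 1 letter from A to C. The rule gave 77 entries, and the second MRPS17 identifier, whose highest value in any library was 0.044, was set aside. MRPL symbols stand for the large subunit (47 genes) and MRPS symbols for the small subunit (29 genes). The rule reads names and gene class, and the higher mean decided between the MRPS17 identifiers.

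Mitochondrial ribosomes translate the few messages of the mitochondrial genome, which encode core subunits of the respiratory chain and the ATP synthase. Their ribosomal RNA comes from the mitochondrial genome, but all of their proteins are encoded in the nucleus, translated by cytosolic ribosomes and imported. The small subunit holds the messenger RNA and the decoding site, the large subunit holds the peptidyl transferase centre, and some proteins of each have bacterial counterparts while others exist only in mitochondria.

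The 2 groups were protrusions (5 libraries) and the bodies of the same cells (5 libraries), each with replicates 1 to 5. Single cells of the line were arrayed by micro-hooks on a chip, extended protrusions for 6 h, and were fixed for 15 min on ice in 4% paraformaldehyde. Laser capture then separated the protrusions from the bodies, and a SMART-Seq v4 kit made cDNA from their polyadenylated RNA. All libraries came from the same line with no drug or genetic change named. Neither the number of cells behind a library nor the use of separate cultures is stated, so the p-values cover the spread of these libraries alone, and that spread may be technical.

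Values are scaled TPM: they behave as TPM that was multiplied by 1 factor per library, on average 0.891 ± 0.138 in protrusions and 1.14 ± 0.177 in cell bodies (SD, n = 5 each). Read depth is unknown, because TPM does not keep it. Of the line's mesenchymal markers, VIM was at 450 to 736 in protrusions and 546 to 713 in bodies. CD44 was at 43.6 to 75.3 and 39.0 to 54.9 in the same order, and AXL at 22.9 to 66.3 and 30.1 to 41.5. SPARC, also listed as high in this line, was low, at 1.95 to 5.51 in protrusions and 0.904 to 3.93 in bodies. Of the receptors low in this line, PGR was at most 0.01 and ERBB2 ran from 0.992 to 4.76 in protrusions and from 1.84 to 3.38 in bodies. ESR1 had no value. The epithelial markers EPCAM, at 0.787 to 5.25 in protrusions and 1.54 to 4.18 in bodies, and CDH1, at 0 to 0.107 in protrusions and 0.745 to 1.38 in bodies, were low. The blood marker PTPRC reached 0.872 in a protrusion and the keratinocyte marker KRT14 reached 0.087 in a body. Of 4 nuclear RNAs, MALAT1 (0.288 to 25.2 in protrusions against 47.5 to 143 in bodies) and NEAT1 (0.162 to 2.78 against 3.56 to 7.88) did not overlap, while PVT1 and TUG1 did; the part of nuclear RNA in the results was not tested. Protrusion 2 stood apart from the other protrusions: it held the 25.2 of MALAT1 and lay at 24.3 on the first principal component, where the other protrusions ran from 58.8 to 72.2 and the cell bodies ran from -77.8 to -39.0. Results were therefore also computed without it.

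Some of these genes start close to a neighbour on the other strand. By GENCODE 29 gene starts (GRCh38), 16 of the 74 genes matched by identifier had another coding gene starting on the opposite strand within 1000 bases, which is 21.6%, against 10.9% of tested protein-coding genes. The share was 13 of 46 in the large subunit and 3 of 28 (10.7%) in the small. MRPS11 and MRPL46, one gene of each subunit, form such a pair. RefSeq promoter sequence (GRCh38.p14) was matched for 67 of the 76 genes; MRPL2, MRPL10, MRPL13, MRPL15, MRPL21, MRPL23, MRPL35, MRPS28 and MRPS36 had no entry. Below are the bases before the start of MRPS11, which lie between it and the MRPL46 start 320 bases away, those between the starts of MRPL30 and MITD1, 126 bases apart, and those before MRPS10. MRPS11 and MRPL30 had the smallest adjusted p of the family, and MRPS10 was one of its 3 genes with a lower value in every protrusion than in its cell body. Each reads 5′ to 3′ on the gene's own strand, and capitals mark CCGGAAG or GGGCGG on either strand.
MRPS11 (chr15:88467458-88467707, plus strand): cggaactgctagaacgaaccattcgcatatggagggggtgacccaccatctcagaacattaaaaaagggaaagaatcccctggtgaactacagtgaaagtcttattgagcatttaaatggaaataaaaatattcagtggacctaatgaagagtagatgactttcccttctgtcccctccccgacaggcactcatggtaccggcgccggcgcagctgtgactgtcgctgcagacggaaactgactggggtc
MRPL30 (chr2:99181059-99181183, plus strand): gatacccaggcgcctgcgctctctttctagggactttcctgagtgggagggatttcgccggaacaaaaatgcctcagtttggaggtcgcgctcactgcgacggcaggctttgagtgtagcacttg
MRPS10 (chr6:42217862-42218111, minus strand): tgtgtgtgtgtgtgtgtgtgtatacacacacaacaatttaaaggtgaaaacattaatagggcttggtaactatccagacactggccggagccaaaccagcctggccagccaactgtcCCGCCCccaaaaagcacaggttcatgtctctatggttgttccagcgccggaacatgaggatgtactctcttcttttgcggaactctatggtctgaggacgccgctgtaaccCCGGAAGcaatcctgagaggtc

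Across the 67 promoters, read from 250 bases before to 50 after the start, CCGGAAG, the core bound by ETS factors, was found on either strand in 28 (41.8%), against 21.9% of the 6793 promoters of tested coding genes and 10.7% of all 27305 promoters in the table. AAGATGGC, the core bound by YY1, was in 20 (29.9%), against 6.45% and 3.03%. GGGCGG, the GC box bound by Sp1, was in 41 (61.2%), against 71.4% and 44.6%. TATAAA, the TATA box, was in 2. CCGGAAG and AAGATGGC can share the letters AAG where they meet, and a match describes the sequence, not a bound site. AAGATGGC also contains ATG, the letters of a start codon, and whether the matches hold translation starts was not checked. AAGATGGC lay on the coding strand in 15 genes, in 14 of them at or after the annotated start. 8 of these windows of 30 bases, again from RefSeq and with the match in capitals, show how alike they are.
MRPL38 (chr17:75904860-75904889, minus strand): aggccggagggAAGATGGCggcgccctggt
MRPL45 (chr17:38297170-38297199, plus strand): tttgcgggaacAAGATGGCagcccccatac
MRPS18A (chr6:43687764-43687793, minus strand): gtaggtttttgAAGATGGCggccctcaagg
MRPS7 (chr17:75261887-75261916, plus strand): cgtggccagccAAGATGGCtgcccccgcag
MRPL46 (chr15:88467362-88467391, minus strand): tgggagaacgaAAGATGGCggcgcccgtaa
MRPS18B (chr6:30617852-30617881, plus strand): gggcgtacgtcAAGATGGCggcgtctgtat
MRPL51 (chr12:6493223-6493252, minus strand): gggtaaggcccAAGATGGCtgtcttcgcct
MRPS10 (chr6:42217834-42217863, minus strand): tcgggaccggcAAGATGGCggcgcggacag
The windows are given from the gene with the highest log2 difference between protrusions and bodies, MRPL38 at 0.51, to the one with the lowest, MRPS10 at -0.33, so genes that share these letters had differences on both sides of 0. Those of the 15 not shown were mostly above 0. They were MRPL20 (0.31), MRPS24 (0.21), MRPS30 (0.21), MRPL42 (0.19), MRPL52 (0.13), MRPS27 (0.05) and MRPL50 (-0.25).

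As a family, the messages of mitochondrial ribosomal proteins took a larger share of protrusion RNA than of cell body RNA. All 76 genes passed the filter of 1 or more in at least 5 libraries, and each had 1 or more in every library. Their summed share of the library was 1.48%, 1.23%, 1.66%, 1.58% and 1.36% in protrusions 1 to 5, against 1.03%, 0.749%, 1.23%, 1.14% and 0.944% in cell bodies 1 to 5. Every protrusion was above its own cell body, by 1.35 to 1.64 times, although the groups touch, since protrusion 2 (1.23%) lay just below cell body 3. The mean share was 1.46% ± 0.171 in protrusions and 1.02% ± 0.187 in cell bodies (SD, n = 5 each). A share of bulk RNA cannot tell more copies of these messages apart from less of the other RNA in a protrusion. Cytosolic ribosomal proteins, a list of 85 genes, took 23.7% ± 2.34 in protrusions and 24.6% ± 2.28 in cell bodies.

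**Figure D1:**
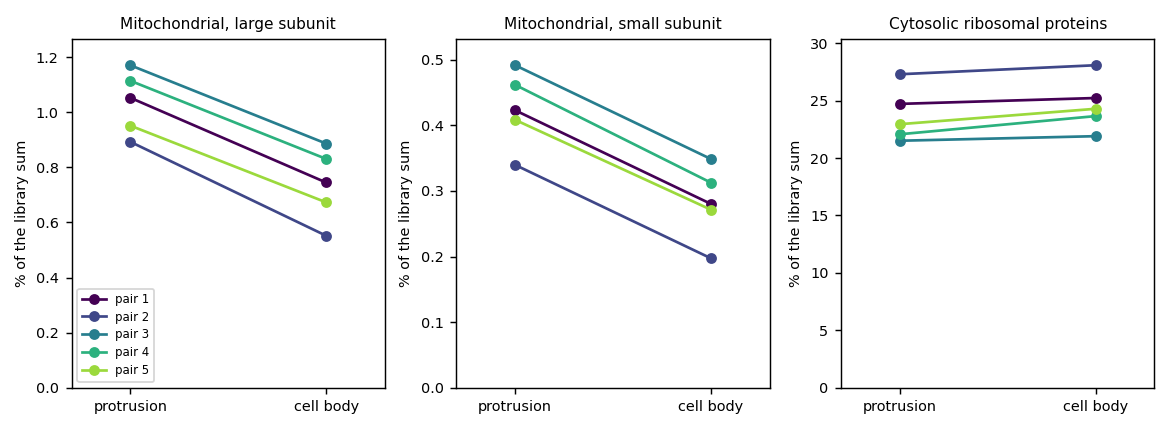
Share of each library's summed scaled TPM (y axes, percent, from 0) taken by the large subunit, the small subunit and cytosolic ribosomal proteins, in protrusions (left) and cell bodies (right), with lines joining libraries of the same number. Both mitochondrial subunits were higher in the protrusion of all 5 pairs, with small-subunit means of 0.425% in protrusions and 0.282% in bodies, while the cytosolic share was slightly lower in the protrusion of each pair.

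Gene by gene, 67 of the 76 had a positive log2 difference (protrusion minus cell body) and 9 a negative one, with a median of 0.26 and a range of -0.46 to 0.84. The median over all 10894 tested genes was -0.03. In limma, with Benjamini-Hochberg adjustment over all tested genes and a threshold of 0.05, 7 of the 76 rose in protrusions (9.21%; 4.28% of all tested genes did), none fell (21.5% of all tested genes did), and 69 did not pass. 17 had an unadjusted p below 0.05. Most of the set thus had positive differences that did not pass the threshold gene by gene. The background depends on which genes are counted: among the 5709 genes with 5 or more in at least 5 libraries, which include all 76, 7.06% rose, 18.8% fell and the median was 0.10. The part of abundance in the family's shares was not tested.

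Libraries with the same number deviated from their group means together, so the numbers were also used as a block. With this replicate block 31 of the 76 rose (40.8%; 13.0% of all tested genes did) and 2 fell, MRPS10 and MRPL44 (25.4% of all tested genes fell). In 40 of the 76 genes the protrusion was above its own cell body in all 5 pairs, which is 52.6%, against 17.0% of all tested genes. A further 17 were higher in 4 pairs, 9 in 3, 5 in 2, 2 in 1 and 3 in none. Of all tested genes, 26.4% were below their own cell body in every pair. All protrusions were above all cell bodies in 6 genes, 7.89% of the family and 3.46% of all tested genes, and in no gene were all protrusions below all bodies, against 18.4% of all tested genes.

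The pairs did not differ in direction but did in size. In pairs 1 to 5 the protrusion was higher for 60, 69, 49, 60 and 69 of the 76 genes, and the median log2 differences were 0.22, 0.54, 0.11, 0.16 and 0.36. The medians over all tested genes in the same pairs were -0.07, 0.11, -0.22, -0.08 and -0.00, so the family sat above the median gene in each pair. Pair 2 had the highest median. It holds the protrusion library that stood apart and also the cell body with the lowest family share of all libraries, 0.749%. Without protrusion 2 the unblocked fit called 9 of the family higher (11.8%, against 5.96% of all tested genes), with a median of 0.33. Without cell body 2 it called 4 (5.26% against 3.06%), with a median of 0.19. Without both libraries numbered 2 it called 6 (7.89% against 4.62%), with a median of 0.20.

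The size of the family's lead depends on how libraries are put on 1 scale. After each library was rescaled to the same sum, 33 of the 76 rose (14.3% of all tested genes did) with a median of 0.61, where the median of all tested genes was 0.25. With median-of-ratios scaling 24 rose (10.5% of all tested genes) with medians of 0.41 for the family and 0.09 for all. With quantile normalization 12 rose, which is 15.8% against 17.5% of all tested genes, and the medians were 0.25 for the family and 0.24 for all, so under that scaling neither value set the family apart on the high side. None of the 76 fell under any of these scalings without the block, against 16.8%, 19.1% and 17.3% of all tested genes with same-sum, median-of-ratios and quantile values. The block together with same-sum values, an alternative chosen after seeing the data, called 70 of the 76 higher and none lower, where 34.4% of all tested genes were higher and 19.3% lower.

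**Figure D2:**
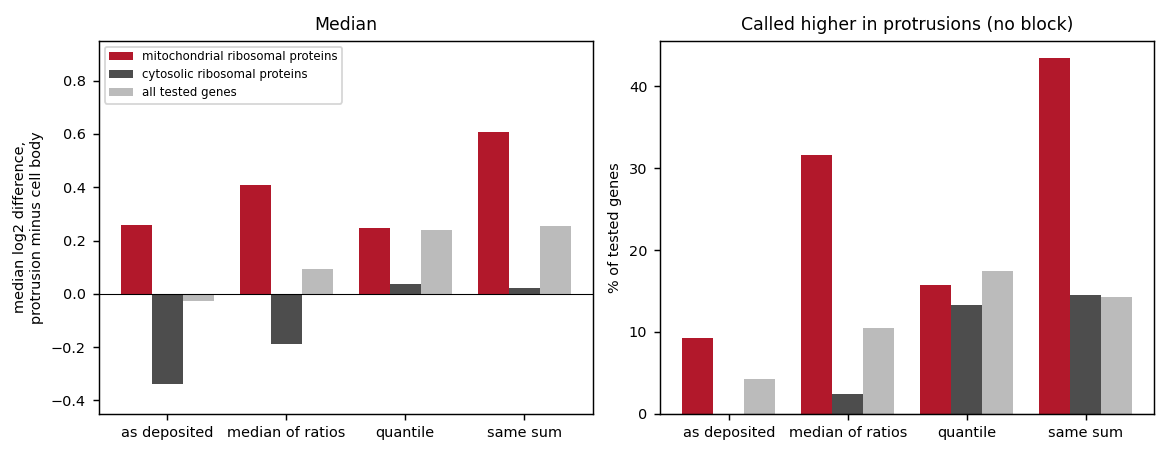
Median log2 difference, protrusion minus cell body (left), and percent of tested genes called higher in protrusions by limma without the block (right), for mitochondrial ribosomal proteins (red), cytosolic ribosomal proteins (dark grey) and all tested genes (light grey) under 4 scalings on the x axis. The red bars exceed the light grey ones with deposited, median-of-ratios and same-sum values, and the medians of 0.25 and 0.24 nearly coincide with quantile values.

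Both subunits had positive medians and more genes above 0 than below. In the large subunit, 5 of 47 genes rose (10.6%) and none fell, the median log2 difference was 0.27, 42 were positive and 28 were higher in all 5 pairs (59.6%). In the small subunit, 2 of 29 rose (6.90%) and none fell, the median was 0.24, 25 were positive and 12 were higher in all 5 pairs (41.4%). Of all tested genes, 4.28% rose, 21.5% fell and 17.0% were higher in all 5 pairs. With the replicate block, 21 of the large (44.7%) and 10 of the small subunit genes (34.5%) rose and 1 of each fell. Among all tested genes 13.0% rose and 25.4% fell with the block. The share called higher was 51.1% of the large and 31.0% of the small subunit with same-sum values (14.3% of all tested genes). With median-of-ratios values it was 40.4% and 17.2% (10.5% of all). With quantile values it was 17.0% and 13.8%, both under the 17.5% of all tested genes. The per-pair medians of the large and small subunit were 0.24 and 0.22 in pair 1, 0.54 and 0.45 in pair 2, 0.13 and 0.04 in pair 3, 0.16 and 0.17 in pair 4, and 0.36 and 0.39 in pair 5, so neither subunit led in all pairs. The difference between the medians was 0.04 with the deposited values but -0.04 after quantile normalization and -0.01 without both libraries numbered 2. No test was made between the subunits, since the genes of a subunit are not replicates.

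Summed over its genes, the large subunit took 1.04% ± 0.114 of protrusion libraries and 0.737% ± 0.132 of cell body libraries, and the small subunit 0.425% ± 0.0578 of protrusion and 0.282% ± 0.0563 of cell body libraries (SD, n = 5 each). The large subunit sum was 2.45 ± 0.116 times the small subunit sum in protrusions and 2.63 ± 0.122 times in cell bodies. This ratio, which a single factor per library does not change, was lower in the protrusion of every pair, at 2.49, 2.63, 2.38, 2.41 and 2.33 in protrusions 1 to 5 against 2.66, 2.80, 2.54, 2.66 and 2.48 in cell bodies 1 to 5; as a sum over chosen genes it was not tested. A sum weighs abundant genes most, and the family's 3 most abundant genes, MRPL51, MRPL33 and MRPL52, all belong to the large subunit. Their log2 differences, given below, were each under the large subunit median of 0.27, and their part in the ratio was not tested. The gap between the subunits' mean log2 levels was 0.42 ± 0.05 in protrusions and 0.39 ± 0.05 in cell bodies, less than 1 SD apart and the other way round from the ratio of the sums. Moving MRPS30 and MRPS18A, which sit in the large subunit despite their names, and leaving out MRPS36, also known as a subunit of the 2-oxoglutarate dehydrogenase complex, left the medians at 0.27 over 49 genes and 0.24 over 26. A list of bacterial counterparts split the genes further, but only roughly. It holds MRPS18C and leaves its paralogs MRPS18A and MRPS18B among the mitochondria-specific genes, and its placing of MRPL55 was not checked. The 46 listed genes had a median of 0.27 and 6 that rose (13.0%), or 18 with the block (39.1%). The other 30 had a median of 0.25 and 1 that rose (3.33%), or 13 with the block (43.3%). Of all tested genes, 4.28% rose without the block and 13.0% with it.

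**Figure D3:**
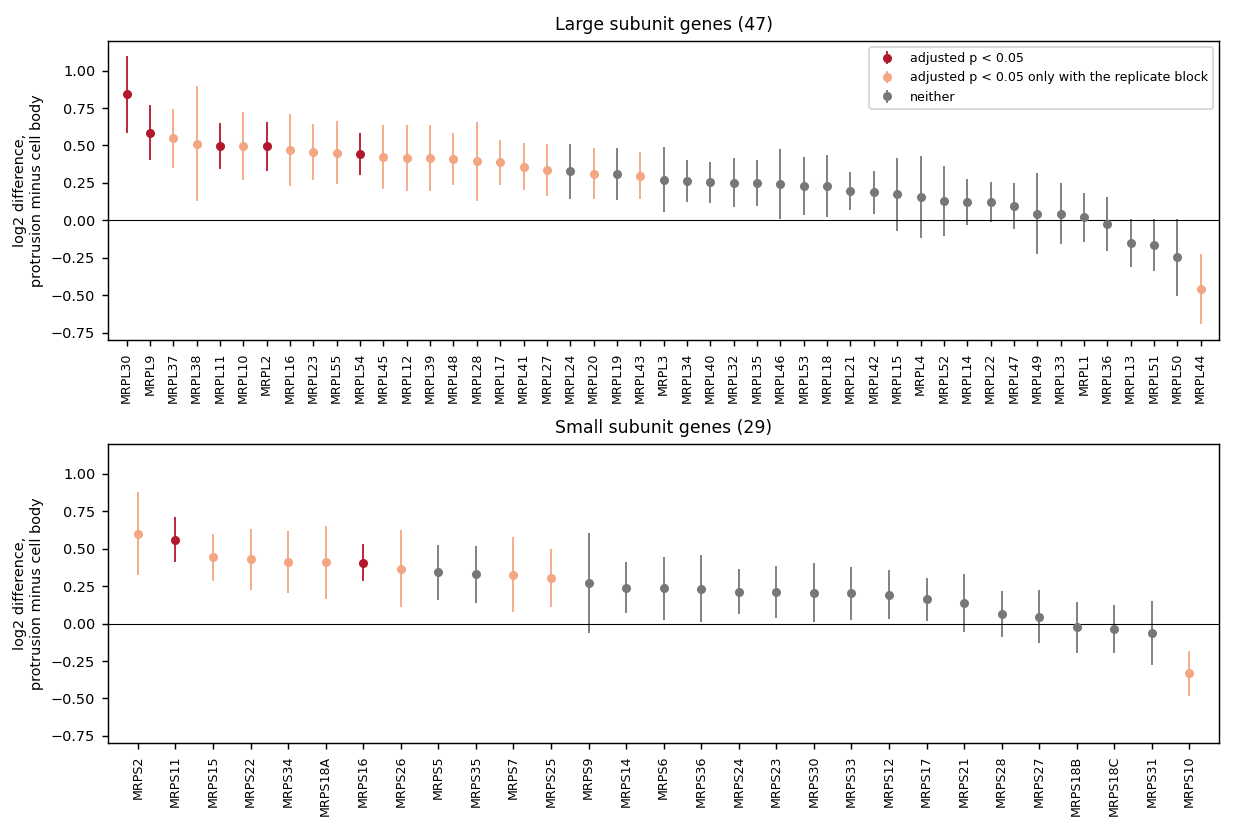
Log2 difference, protrusion minus cell body (y axis), of each of the 47 large subunit genes (top) and 29 small subunit genes (bottom), ordered from highest to lowest; bars are standard errors of the limma fit without the block. Red points passed the threshold, light orange points passed it with the replicate block alone, and grey points passed neither; the genes run from MRPL30 at 0.84 to MRPL44 at -0.46, with both subunits mostly above 0.

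In the small subunit, MRPS11 and MRPS16 rose. MRPS11, the counterpart of a bacterial protein of the small subunit platform, had 162, 125, 142, 161 and 134 in protrusions 1 to 5, against 113, 79.6, 101, 108 and 87.7 in cell bodies 1 to 5. All protrusions lay above all bodies, and the pairs differed by a narrow 0.48 to 0.64 on the log2 scale. The means were 145 ± 16.5 in protrusions and 97.9 ± 13.9 in cell bodies (SD, n = 5 each), a log2 difference of 0.56 (SE 0.15, limma adjusted p = 0.0119, and 2.95e-04 with the block). It was the only one of the 7 called genes that stayed past the threshold without each of the 10 libraries in turn. MRPL46, a large subunit protein read from the neighbouring start shown above and looked at for that position, had 49.5 ± 8.07 in protrusions and 43.1 ± 12.8 in bodies, a log2 difference of 0.24 (adjusted p = 0.503) that became 0.026 without cell body 2 and 0.12 without both libraries numbered 2. Whether the 2 genes of this interval differ from each other was not tested.

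MRPS16, also with a bacterial counterpart, had 268, 298, 285, 278 and 266 in protrusions, against 229.7, 194, 225, 213 and 192 in cell bodies. The groups did not overlap, and cell body 1 was the highest body. The log2 difference was 0.41 (SE 0.12, adjusted p = 0.0262, and 0.00275 with the block), and the call was lost without protrusion 4 (0.0577), cell body 4 (0.0535) or cell body 5 (0.064). The antisense gene DNAJC9-AS1 covers 14.9% of its exon bases, and reads of the overlap cannot be assigned without strand. MRPS2, counterpart of another bacterial protein, had 48.6, 36.1, 73.6, 63.4 and 33.1 in protrusions, against 38.0, 18.7, 42.4, 43.2 and 24.5 in bodies. The groups overlap widely, but each protrusion was above its own body, most of all in pair 2. Its log2 difference of 0.60 (SE 0.28) missed the threshold at 0.138 and passed with the block at 0.0024.

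In the large subunit, MRPL30 had the largest difference. Its values were 15.1, 23.7, 19.9, 15.85 and 16.5 in protrusions, against 14.2, 12.04, 9.19, 10.7 and 4.61 in cell bodies. The groups came close, with protrusion 1 only just above cell body 1, and cell body 5 was the lowest library. The log2 difference was 0.84 (SE 0.26, adjusted p = 0.0249, and 0.0075 with the block), and the call was lost without protrusion 3 (0.0531) or cell body 5 (0.0503). In the authors' deposited table, which gives cell body relative to protrusion, MRPL30 had a log2 fold change of -1.17 with p = 0.00633 and a false discovery rate of 0.724. It was the only gene of the family with p below 0.05 in the authors' deposited table, where 6.5% of all genes were.

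MRPL11, a protein at the base of the stalk that factors bind, had 159.5, 154, 174, 194 and 159 in protrusions, against 135, 91.7, 130.4, 135 and 106 in cell bodies. No library of one group reached into the other. The log2 difference was 0.50 (SE 0.15, adjusted p = 0.0264, and 0.00163 with the block), and the call was lost without protrusion 3 (0.053), protrusion 4 (0.0777) or cell body 5 (0.0649). MRPL12, the stalk protein itself, also known to bind the mitochondrial RNA polymerase, had 144, 102, 191, 171 and 129 in protrusions, against 115, 65.9, 138, 133 and 103 in bodies. These groups overlap, yet each protrusion exceeded its own body. The log2 difference was 0.42 (SE 0.22, adjusted p = 0.204, and 0.00347 with the block; 0.24 without cell body 2), with 68.2% of its exon bases shared with another annotated gene.

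MRPL9, MRPL54 and MRPL2 also rose. MRPL2, whose bacterial counterpart lies next to the peptidyl transferase centre, had 98.8, 109, 124, 109 and 95.4 in protrusions, against 85.1, 55.0, 85.7, 89.0 and 69.1 in bodies. MRPL54, found only in mitochondria, had 107, 113, 111, 110.4 and 127 in protrusions, against 83.0, 67.7, 90.6, 97.2 and 80.0 in bodies. In both genes the groups were separate, and cell body 2 was the lowest library. MRPL9, with a bacterial counterpart, had 71.7, 86.6, 94.5, 91.0 and 84.7 in protrusions, against 56.9, 38.0, 72.4, 70.5 and 52.4 in bodies. Here protrusion 1 lay just under cell body 3, and OAZ3 covers 38.5% of the exon bases. The log2 differences were 0.49 for MRPL2 (adjusted p = 0.0402), 0.44 for MRPL54 (0.0332) and 0.58 for MRPL9 (0.0304), with block values of 0.00683, 0.00718 and 0.00493 in the same order. Each was lost in several of the 10 fits with a library left out. MRPL2 missed without protrusion 1, 2, 3 or 4 or cell body 2 or 5 (0.0542 to 0.0944), MRPL9 without protrusion 3, 4 or 5 or cell body 1, 2 or 5 (0.0522 to 0.0701), and MRPL54 without protrusion 1, 3, 4 or 5 or cell body 1, 2 or 5 (0.0523 to 0.0832).

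How many of the family passed without the block therefore turned on single libraries. The count of 7 became 1 without cell body 5, 2 without protrusion 3 or protrusion 4, and 4 without cell body 2, and lay up to 9 in the other 6 fits. Without cell body 5 this was 1.32% of the family, under the 2.36% of all tested genes. Without protrusion 3 it was 2.63% against 3.65%, and without protrusion 4 it was 2.63% against 2.94%. Without cell body 2 it was 5.26%, above the 3.06% of all tested genes. The median log2 difference over the family moved less, from 0.19 to 0.33.

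**Figure D4:**
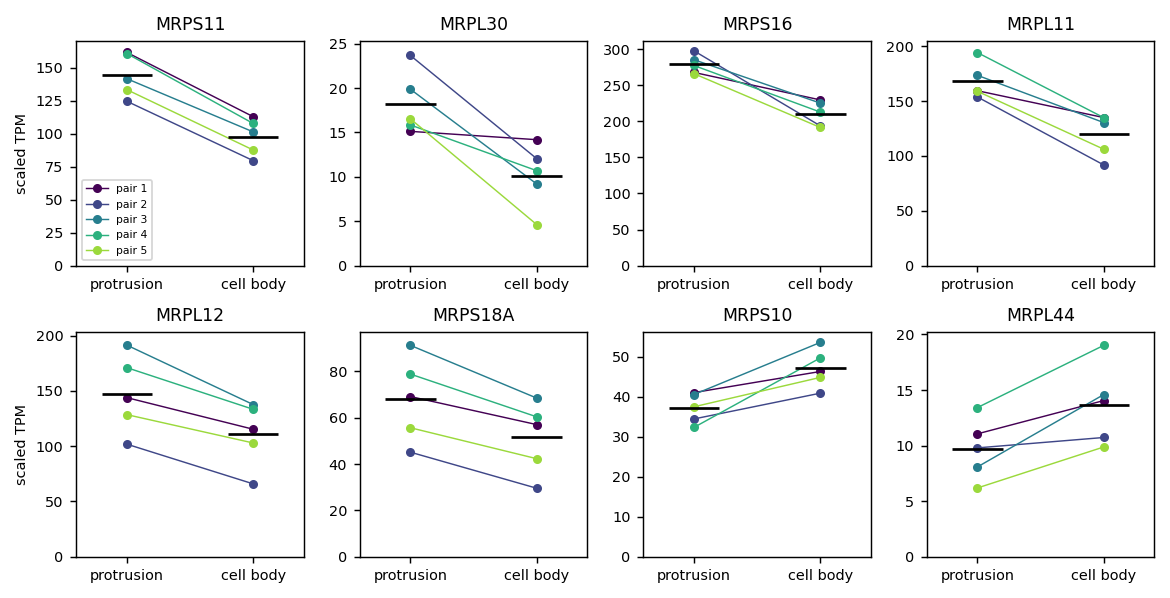
Scaled TPM (y axes, from 0) of 8 genes in protrusions (left) and cell bodies (right); lines join libraries of the same number and black bars are means. MRPS11, MRPL30, MRPS16 and MRPL11 were separate between groups, MRPL12 and MRPS18A overlapped but were higher in every protrusion than in its own body, and MRPS10 and MRPL44 were lower in every protrusion than in its own body.

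3 genes were lower in the protrusion of every pair. MRPS10, counterpart of a protein of the bacterial small subunit head, had 41.1, 34.5, 40.6, 32.4 and 37.5 in protrusions, against 46.4, 40.9, 53.6, 49.7 and 44.9 in cell bodies. The groups met only where protrusion 1, at 41.1, exceeded cell body 2, at 40.9. Its log2 difference was -0.33 (SE 0.15, adjusted p = 0.125, and 0.0369 with the block), and 0.02 after rescaling to the same sum, so its direction rests on the scaling. The difference stayed negative with quantile and median-of-ratios values, and ran from -0.38 to -0.28 with single libraries left out. A pseudogene of MRPS10, MRPS10P1, averaged 6.90 and reached 36.7 in a single library, and reads of the copies could be split between them.

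MRPL44, whose protein carries a ribonuclease III-like domain, had 11.1, 9.80, 8.08, 13.4 and 6.19 in protrusions, against 14.1, 10.7, 14.6, 19.0 and 9.88 in bodies. Its groups overlap, and the pairs differ between -0.78 and -0.12. The log2 difference was -0.46 (SE 0.24, adjusted p = 0.185, and 0.037 with the block), and -0.13 after rescaling to the same sum. MRPL50, also specific to mitochondria, averaged 14.9 ± 5.18 in protrusions and 17.6 ± 4.63 in bodies, a log2 difference of -0.25 (adjusted p = 0.544) that became 0.09 after rescaling to the same sum. Its pairs ran from -0.52 to -0.0023, so in one of them the 2 values were nearly equal, and with single libraries left out it ran from -0.40 (without cell body 2) to -0.12 (without protrusion 2).

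The MRPS18 proteins are 3 paralogs of 1 bacterial protein, of which MRPS18A is a large subunit protein. MRPS18A had 69.1, 45.1, 91.2, 78.8 and 55.7 in protrusions, against 57, 29.6, 68.4, 60.4 and 42.3 in bodies. It was higher in every pair, with overlapping groups, a log2 difference of 0.41 (adjusted p = 0.263, and 0.00762 with the block; 0.23 without cell body 2) and 47.0% of its exon bases shared with RSPH9. MRPS18B had 75.9 ± 13.8 in protrusions and 76.8 ± 10.6 in cell bodies (log2 difference -0.02, adjusted p = 0.938), and MRPS18C had 299 ± 49.8 and 307 ± 48.4 in the same order (-0.03, adjusted p = 0.905). Both of these turn positive after rescaling to the same sum, at 0.33 and 0.32, and with median-of-ratios scaling, at 0.12 and 0.11. Whether the paralogs differ from each other was not tested. MRPS30 had 28.4 ± 5.25 in protrusions and 24.6 ± 4.79 in bodies (0.21, adjusted p = 0.5), and MRPS36 had 101 ± 32.1 and 85.1 ± 22.1 (0.23, adjusted p = 0.504). With single libraries left out these differences ran from 0.07 (without cell body 2) for MRPS30 and from 0.07 (without protrusion 2) to 0.36 (without cell body 2) for MRPS36.

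Abundant and scarce genes of the family lay on both sides of 0. The mean level per gene over all libraries ran from 10.7 for MRPS31 to 1212 for MRPL51, with a median of 93.6, against 6.08 for tested protein-coding genes. Of the most abundant genes, MRPL51 averaged 1131 ± 113 in protrusions and 1294 ± 314 in bodies (-0.16, adjusted p = 0.555), MRPL33 1028 ± 282 and 989 ± 225 (0.04, adjusted p = 0.905), and MRPL52 737 ± 230 and 673 ± 189 (0.13, adjusted p = 0.746). None of these passed, and MRPL51 turns positive, at 0.19, after rescaling to the same sum. Among the least abundant were MRPS31 at 10.6 ± 2.72 in protrusions and 10.9 ± 1.87 in bodies (-0.06, adjusted p = 0.866) and MRPS9 at 14.9 ± 5.79 and 11.7 ± 3.81 (0.27, adjusted p = 0.616). The MRPS9 difference became 0.60 without protrusion 2, its far-off lowest protrusion, and 0.073 without cell body 2. Across the 76 genes, which share libraries, Spearman's rho between level and log2 difference was -0.13, where it was 0.30 across the tested protein-coding genes. By subunit it was -0.31 over the 47 large and 0.15 over the 29 small subunit genes.

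The messages are short. Over the 74 genes matched in GENCODE 29 the median mRNA length was 1430.5 bases against 2884 for tested protein-coding genes, the median coding length 585 against 1254, and the median exon number 5 against 9. Across tested coding genes, Spearman's rho between mRNA length and log2 difference was -0.28, so shorter messages tended to have higher differences, while within the family it was -0.01. The part of length in the family's difference from other genes was not tested. The 74 genes lie on 21 chromosomes, and 26 share over 10% of their exon bases with another gene. Of the 28 genes with a promoter entry that rose with the block, 14 held CCGGAAG and 5 held AAGATGGC, against 14 and 15 of the other 39.

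Other parts of the mitochondrial translation system did not move as 1 group. 7 proteins of the mitochondrial ribosome carry other symbols, and their median log2 difference was 0.27, with none that rose. PTCD3, a small subunit protein with pentatricopeptide repeats that binds RNA, fell: it had 2.53, 4.67, 5.10, 5.01 and 3.66 in protrusions, against 16.0, 16.6, 13.9, 16.8 and 22.1 in bodies. The groups lie far apart, with a log2 difference of -1.81 (SE 0.21, limma adjusted p = 9.36e-06). No gene of the MRPL and MRPS family had a difference of this size. In the authors' deposited table, which gives cell body relative to protrusion, PTCD3 had a log2 fold change of only 0.16. Its p there was 0.631 and its false discovery rate 0.944.

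Of 44 factors that assemble mitochondrial ribosomes or act in translation with them, 42 were tested, 2 rose, 6 fell and the median was 0.17. These are 4.76% and 14.3%, against 4.28% and 21.5% of all tested genes, so the counts were near or below the background. With the block, 10 rose and 7 fell (23.8% and 16.7%, against 13.0% and 25.4% of all tested genes). NOA1, a GTPase needed for assembly of the small subunit, had 3.16, 8.84, 1.53, 2.88 and 3.25 in protrusions, against 39.5, 77.0, 22.4, 24.5 and 80.4 in bodies. Protrusion 2 was the highest protrusion and still under every body (log2 difference -3.29, SE 0.41, adjusted p = 1.65e-05). GFM1, the elongation factor that moves the ribosome along the message, had 9.83 ± 3.26 in protrusions and 24.1 ± 6.93 in bodies (-1.21, adjusted p = 0.00109). MTFMT, which formylates the initiator methionyl-tRNA, had 8.59 ± 2.87 and 18.04 ± 2.79 (-1.02, adjusted p = 0.00201), and C12orf65, a member of the release factor family, had 35.4 ± 10.2 and 65.6 ± 9.48 (-0.91, adjusted p = 0.00365). After rescaling to the same sum, MTFMT and C12orf65 missed the threshold at 0.0532 and 0.14.

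The other factors that passed lie outside the rule for naming genes and were chosen after their values were seen. SLIRP, the RNA-binding partner of LRPPRC, had 4809 ± 1269 in protrusions and 8059 ± 2067 in bodies (-0.75, adjusted p = 0.0139), and RBFA, a small subunit assembly factor, 10.5 ± 3.69 and 17.4 ± 1.98 (-0.73, adjusted p = 0.0308). The 2 that rose were MPV17L2, an inner membrane protein needed for ribosome assembly, at 27.1 ± 4.46 in protrusions and 16.2 ± 4.30 in bodies (0.74, adjusted p = 0.0176), and ERAL1, a chaperone of the small ribosomal RNA, at 35.2 ± 8.25 and 21.9 ± 6.04 (0.67, adjusted p = 0.0343). MPV17L2 missed without protrusion 4 (0.0526). ERAL1 missed without protrusion 1, 3 or 4 or cell body 1, 2 or 5 (0.0691 to 0.0975), and RBFA without protrusion 1 or 5 or cell body 2 or 5 (0.0628 to 0.0779). RBFA also missed with same-sum, quantile and median-of-ratios values (0.0756 to 0.291), and ERAL1 without the filter (0.0539). With the block, the limma adjusted p was 1.04e-06 for SLIRP, 0.0132 for RBFA, 0.00177 for MPV17L2 and 0.0012 for ERAL1. The number of factors that rose was 0 without protrusion 4 and 1 without protrusion 1, protrusion 3, cell body 1 or cell body 5.

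Of the 13 messages of the mitochondrial genome, which these ribosomes translate, 11 had a negative difference, with a median of -0.28. Without the block 2 fell (15.4%, under the 21.5% of all tested genes). With the block 7 fell (53.8%, above the 25.4% of all tested genes). The count of 2 became 4 without protrusion 2, 3 without cell body 3 and 1 without any other single library. The list's sign turned with the scaling: its median was 0.07 with same-sum values (7 of 13 positive, 1 higher and 1 lower), 0.12 with quantile values (10 of 13 positive, none called) and -0.13 with median-of-ratios values. MT-CO3, a core subunit of cytochrome c oxidase, had 14673, 12963, 9609, 13471 and 15085 in protrusions, against 25430, 23595, 20178, 26131 and 19153 in bodies. All protrusions lay under all bodies (log2 difference -0.81, SE 0.16, adjusted p = 0.00128), but after quantile normalization the difference was -0.05 with adjusted p = 0.852. MT-CO2, another core subunit of that enzyme, chosen after its value was seen, had a difference of -0.60 (adjusted p = 0.0485) and one of 0.04 after quantile normalization, and it missed without any single library except protrusion 2 or cell body 3 (0.0592 to 0.121). It also missed with same-sum or median-of-ratios values, a pseudocount of 0.1, no filter or a filter of 5 (0.0578 to 0.121). With the block its limma adjusted p was 9.94e-05, and it was lower in the protrusion of every pair. The summed share of the 13 messages was 10.5% ± 1.58 in protrusions and 11.9% ± 1.24 in cell bodies.

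Cytosolic ribosomal proteins, which share the name but not the organelle, had a negative median with the deposited values. Of 83 tested, none rose and 15 fell, which is 18.1%, under the 21.5% of all tested genes that fell; the median was -0.34. With the block 4 rose and 61 fell, which is 73.5%, against 25.4% of all tested genes. RPS7, a small subunit protein chosen after its value was seen, had 2562, 2689, 2034, 2081 and 2219.9 in protrusions, against 4043, 3804, 2894, 3620.1 and 3300.2 in bodies. The groups were separate (log2 difference -0.61, adjusted p = 0.00475). The largest fall, in RPL7L1, a paralog of RPL7 also chosen after its value was seen, was -1.44 (adjusted p = 4.66e-05). The count of 15 became 30 without protrusion 2, and 7 without protrusion 3, 4 or 5 or cell body 1 or 2. The list's median was 0.02 after rescaling to the same sum, 0.04 with quantile and -0.19 with median-of-ratios scaling, so its sign turns with the scaling, while the mitochondrial family's median stayed positive and above that of the cytosolic list under each of these.

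**Figure D5:**
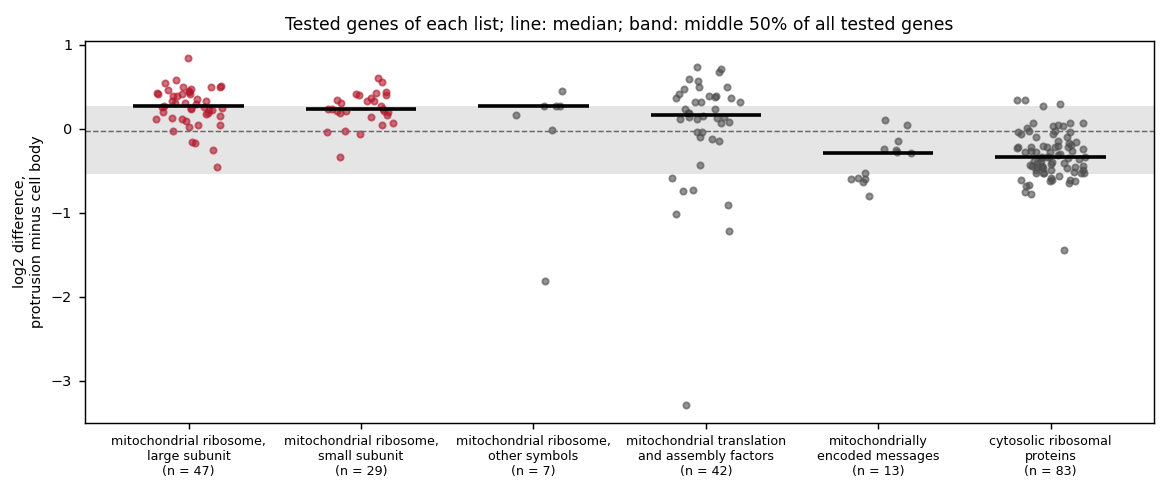
Log2 difference, protrusion minus cell body (y axis), of the tested genes in 6 lists, with black lines at the medians, a dashed line at the median of all tested genes (-0.03) and a grey band for the middle 50% of all tested genes. The medians of both mitochondrial subunits (0.27 and 0.24) lie above the dashed line and that of the cytosolic ribosomal proteins (-0.34) below it; the points far below belong to NOA1 (-3.29) and PTCD3 (-1.81).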

How the data were processed

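The authors deposited 1 table with an expression value per gene and library (signal: TPM that appears rescaled by 1 factor per library), log2 fold changes, p-values and false discovery rates, per the file headers. This unit was read from the values above 0 and below 0.1: in every library 100% were whole multiples of 1 step within 0.0006, where unrelated values would give 8.63% to 16.3%. HISAT2, StringTie 1.3, cutadapt 1.10 and FastQC 0.10.1 were used, per the submitters' processing notes; for the genome build, annotation, strand setting and test of the authors, the sources used here give nothing. In the fold changes deposited by the authors, 67 of the 76 genes had a negative fold change, cell body relative to protrusion, none had a false discovery rate under 0.05, and 6 had the sign opposite to the difference between the library values.

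Genes that reached 1 in 5 or more of the 10 libraries were fitted with limma 3.58.1 (R 4.3.3, mean-variance trend) on log2(value + 1), which understates changes of low genes, and p-values were adjusted by Benjamini-Hochberg over all 10894 tested genes. The code was tested on simulated data. Numbers in the labels pair libraries, and the series' design names corresponding cell bodies: deviations of same-numbered libraries correlated at 0.236 to 0.577, others at -0.433 to 0.289. The unblocked fit is the one reported, with the block beside it.

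The family and lists were chosen with earlier results of these data known. Named genes were those past the threshold, the 3 most and 3 least abundant, the 3 largest differences each way, those lower with the block, a fixed set of 10, and up to 6 of the partner genes. Promoters came from RefSeq tables and positions from GENCODE 29. MT-RNR1 and MT-RNR2 were not analysed here. Alternatives were the scalings, pseudocount 0.1, no filter, a filter of 5, the block and leaving out each library. Python 3.11.15, numpy 2.4.6, pandas 2.3.3 and matplotlib 3.10.9 were used.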

Additional observations from a re-analysis of the deposited data

Results flagged for a closer look

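Among the 80 sets of 5 values checked for 1 value far from the others, 5 had such a value, where chance gives about 1 in 20. In protrusion 2, MRPS9 was at 4.965, the lowest of the protrusions, while NOA1 at 8.838 and GFM1 at 15.52 were the highest. MTFMT was highest in protrusion 5, at 13.58. MRPS30 was lowest in cell body 2, at 16.2.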

How the results depend on the processing

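Without the block, rescaling to the same sum, quantile normalization and median-of-ratios scaling, in that order, called higher 1530, 1903 and 1118 of all genes (466 with deposited values), 33, 12 and 24 of the family (7), 24, 8 and 19 of the large subunit (5), 9, 4 and 5 of the small subunit (2), 5, 9 and 5 of the factors (2), and 12, 11 and 2 of the cytosolic list (0). With same-sum values 3 factors and 9 cytosolic genes were lower, and with median-of-ratios 6 cytosolic genes. The family's median was 0.61 with same-sum values, and the cytosolic median 0.021, 0.036 and -0.19 under the same 3 scalings. The replicate block called higher 1412 genes, 31 of the family (21 large, 10 small), 10 factors and 4 cytosolic genes, and lower 2 of the family and 61 cytosolic genes. The block with same-sum values, like every alternative for the cytosolic list, was chosen after seeing the data; it called higher 3683 genes, 70 of the family (44 large, 26 small), 20 factors and 26 cytosolic genes, with medians of 0.61 for the family and 0.021 for the cytosolic list. Without a filter 3975 genes were lower, 1 factor and 1 cytosolic gene higher and 9 cytosolic genes lower; with a filter of 5, 1073 genes were lower. The filter changes which genes are tested. The cause of these and the other moves was not tested. With a pseudocount of 0.1, 1 cytosolic gene was higher. Without both libraries numbered 2, 25 cytosolic genes were lower. Leaving out 1 library at a time, with the same genes tested, gave 257 to 649 genes higher and 2136 to 2576 lower, 1 to 9 of the family higher and 0 lower, 0 to 6 large and 1 to 3 small subunit genes higher, 0 to 3 factors higher and 5 to 6 lower, 7 to 30 cytosolic genes lower and 0 higher, and medians of 0.19 to 0.33 for the family, -0.48 to -0.21 for the cytosolic list and 0.01 to 0.09 for large minus small.

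Signs turned for small differences. Large minus small was -0.036 with quantile values and -0.011 without both libraries numbered 2. With same-sum values, with or without the block, MRPL50 was at 0.088, MRPL51 at 0.19, MRPS10 at 0.017, MRPS18B at 0.33, MRPS18C at 0.32 and MRPS31 at 0.27. Quantile values gave 0.023 for MRPL51, 0.19 for MRPS31 and 0.036 for MT-CO2; median-of-ratios gave 0.12 for MRPS18B, 0.11 for MRPS18C and 0.075 for MRPS31. Without both libraries numbered 2, MRPS18B was at 0.0048 and MRPS31 at 0.0039. Leaving out single libraries, values ran from -0.088 to 0.15 for MRPL33, -0.038 to 0.25 for MRPL52, -0.11 to 0.089 for MRPS18B, -0.12 to 0.034 for MRPS18C and -0.14 to 0.062 for MRPS31. Over the 36 named genes and 19 settings, 571 values kept direction and side of the threshold, 62 lost it, 17 gained it and 34 turned. The block ended no call among the named genes. Read depth is unknown, which limits what can be said of genes at low values.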
